A study of Rattus norvegicus with 21 samples.

Results

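The calpain genes Capn1, Capn2, Capn3 and Capn8 and the small subunit gene Capns1 were followed in rat bladder carcinoma cells along a time course of fibroblast growth factor 1 (FGF1). Every probe set whose single gene symbol in the platform annotation is one of these 5 genes was taken. This gave 6 of the 15866 probe sets tested, 2 for Capn8 and 1 for each of the other genes, on an array with 10411 gene symbols. The 5 genes were selected on their log2 signals in these same 21 arrays, with earlier results known and no single comparison named. Their differences between groups are therefore a description, given without p-values, and nothing is supported with them.

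NBTII is a rat bladder carcinoma line of epithelial origin, and NBTII-FGFR1 is the same line carrying FGF receptor 1. Neither the promoter that drives the receptor nor whether the line is 1 clone is given in the sources used here. Total RNA was measured at 0, 0.5, 2, 6, 24 and 48 h, on 1 array per sample, in a series on the epithelial to mesenchymal transition. The labels give FGF1 at 20 ng/ml with heparin for all 12 groups of line and time, and call the 0 h samples control cells. There were 2 arrays in 9 groups and 1 array in 3 groups, which are NBTII at 0 h and each line at 0.5 h. The series text says that control cells were not done in duplicate, while 2 titles name NBTII-FGFR1 at 0 h, and the titles were followed. No array after 0 h lacked FGF1, so FGF1, heparin, time in culture and handling cannot be told apart. The labels do not say whether the 2 arrays of a group came from separate cultures, so the errors below may measure technical spread alone.

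Calpains are cysteine proteases of the cytoplasm that are switched on by calcium and cut their substrates at a few sites rather than degrading them. Capn1 and Capn2 encode the catalytic subunits of the widely expressed µ-calpain and m-calpain, each of which pairs with the regulatory small subunit encoded by Capns1, while calpastatin, the product of Cast, is their inhibitor. Calpains cut talin, focal adhesion kinase and other adhesion proteins, and are known for their part in adhesion turnover during cell migration. Capn8 is known from the stomach and Capn3 from skeletal muscle.

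The RefSeq promoter table (build GRCr8, 250 bases before to 50 after each transcription start) held 4 of the 5 genes: Capn2, Capn3, Capn8 and Capns1. Capn2 and Capn8 lie 51014 bases apart on chromosome 13, and 3 LOC genes, 1 of them protein-coding, overlap that interval. The windows of Capn2, Capn8 and Capns1 each held 1 match to the AP-1 motif TGANTCA, which was searched on both strands and was found in 7.33% of 33469 promoters of the same length. These 3 stretches of 100 bases are shown because they put Capn2 and Capn8, whose signals differed in course, beside the calpain gene whose group means moved most closely with those of Capn8. The sequences read 5′ to 3′ on each gene's strand, and the capitals mark the match. The match began at base 2 of the Capn2 transcript, 106 bases before the Capn8 start and 44 bases before the Capns1 start.
Capn2, chr13:96732616-96732715, minus strand: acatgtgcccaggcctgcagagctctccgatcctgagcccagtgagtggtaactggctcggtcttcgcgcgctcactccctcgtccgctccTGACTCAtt
Capn8, chr13:96784585-96784684, plus strand: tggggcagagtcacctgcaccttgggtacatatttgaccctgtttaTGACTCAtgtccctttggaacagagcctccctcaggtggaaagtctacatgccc
Capns1, chr1:94582222-94582321, minus strand: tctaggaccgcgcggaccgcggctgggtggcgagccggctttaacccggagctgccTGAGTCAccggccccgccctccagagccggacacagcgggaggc
The Capns1 window also held 2 matches to the GC box GGGCGG, a motif found in 33.1% of promoters, and Capn2, Capn3 and Capn8 held none. None of the 4 windows held the CArG core, which 1.64% of promoters held, and the Capn3 window held none of the 3 motifs. Outside the 5 genes, the window of Capn6, another calpain, also held 1 AP-1 match, 122 bases before its start. The windows of Capn7, Capn9, Capn10, Capn13, Capn15 and Cast held no AP-1 match. All of these are matches of letters and not sites shown to be bound.

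Values are log2 signals, and a difference of 1 is a doubling of signal. Probe sets differ in how strongly they bind, so differences were taken between arrays within a probe set. A level set against the median or lower quartile of its array, or used to pick a gene's brightest probe set, is a signal and not an amount of RNA. Array medians lay between 6.13 and 6.21 and lower quartiles between 4.36 and 4.54, and no detection calls were used. A difference was called when its adjusted p passed 0.05 in a limma fit over all 15866 probe sets. Fgfr1 ranged from 4.56 to 7.58 in the 8 NBTII-FGFR1 arrays of 2 to 48 h and from 3.58 to 4.05 in the 8 NBTII arrays. The library labelled NBTII-FGFR1 0 h replicate 1 gave 3.57 for Fgfr1, while replicate 2 gave 5.92 and the NBTII array at 0 h gave 3.97. This library goes against its label, so calls against 0 h that ended without it are named with the value without it. The 2 arrays of NBTII-FGFR1 at 2 h correlated least of the 9 pairs (r = 0.988, up to 0.997 elsewhere). Replicate 1 of that group was taken as doubted too, though this correlation cannot tell which of the 2 arrays is off. The mean of the 27 poly-A control probe sets was 6.13 to 6.64 in the 3 arrays at 0 h and 5.33 to 5.72 in the 18 later arrays, and the part of this step in the differences from 0 h was not tested. Of 10 epithelial markers measured, 7 (Krt5, Krt8, Krt14, Cdh1, Epcam, Cldn4 and Dsp) lay above the array median in all 21 arrays, and Krt19 lay below the lower quartile in all. In such bulk RNA, fewer cells of a type and less RNA per cell cannot be told apart.

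Capn8, whose product is known from the mucous cells of the stomach, moved furthest. Its signal climbed in NBTII-FGFR1 cells from 6 h on and at 48 h was above 0 h 23.6-fold by probe set 1387991_at and 12.2-fold by 1387292_s_at, while in NBTII cells it stayed low. Probe set 1387991_at spanned 5.16 on the log2 scale over the 21 arrays, a range that 18 probe sets exceeded. Probe set 1387292_s_at spanned 4.10, which 57 probe sets exceeded. The 2 probe sets of Capn8 correlated at r = 0.96 over the 21 arrays.

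In NBTII-FGFR1 cells, 1387991_at read 5.39 and 5.34 at 0 h, 5.42 at 0.5 h, 5.05 and 5.31 at 2 h, 6.59 and 7.43 at 6 h, 7.99 and 9.35 at 24 h, and 10.21 and 9.64 at 48 h. In NBTII cells it read 5.59 at 0 h, 5.15 at 0.5 h, 5.69 and 5.44 at 2 h, 5.71 and 5.69 at 6 h, 6.11 and 6.38 at 24 h, and 5.77 and 5.52 at 48 h. The receptor line lay below NBTII at 0 and 2 h, above its single array at 0.5 h, and above it at 6, 24 and 48 h, with no overlap at those later times. The widest gap between replicates was at 24 h in NBTII-FGFR1, and even the lower of those 2 arrays exceeded every NBTII array.

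The other Capn8 probe set, 1387292_s_at, read 4.80 and 4.92 at 0 h in NBTII-FGFR1 cells, 4.85 at 0.5 h, 4.84 and 4.75 at 2 h, 5.67 and 5.67 at 6 h, 6.17 and 7.03 at 24 h, and 8.84 and 8.11 at 48 h. In NBTII cells it read 4.93 at 0 h, 4.98 at 0.5 h, 5.34 and 5.07 at 2 h, 5.45 and 4.81 at 6 h, 5.40 and 5.49 at 24 h, and 4.98 and 4.85 at 48 h. Its course had the same order of times in NBTII-FGFR1 from 2 h on, with a later and shorter climb. The highest of the 10 NBTII arrays, at 5.49, lay below every NBTII-FGFR1 array of 6 h or later.

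**Figure D1:**
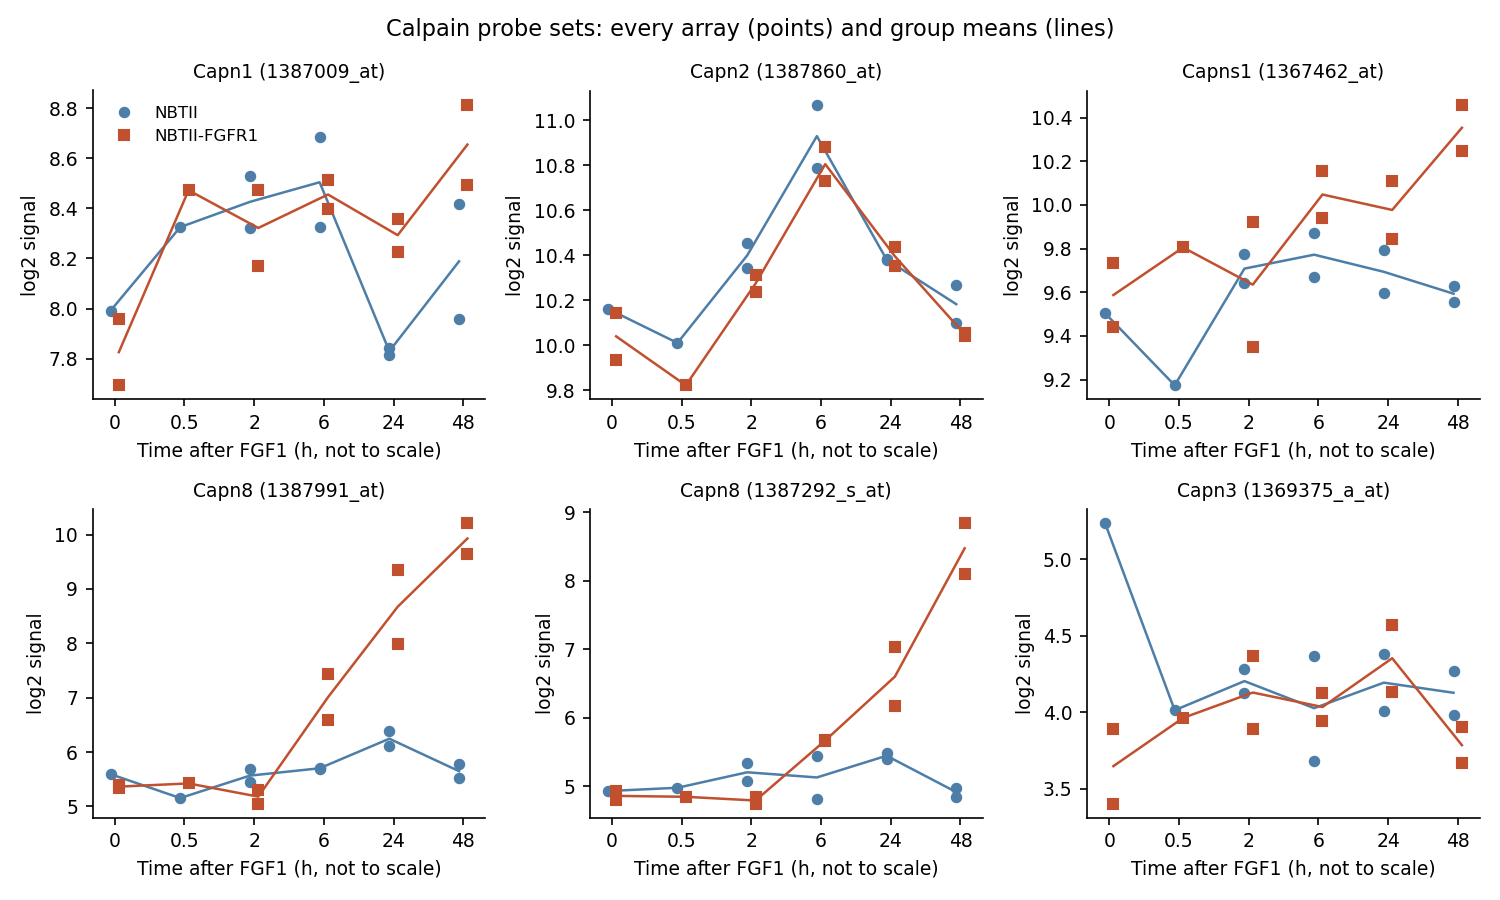
Log2 signal (vertical axis) of the 6 calpain probe sets at each time after FGF1 (horizontal axis, evenly spaced, hours not to scale), with every array as a point, NBTII as circles, NBTII-FGFR1 as squares, and lines through the group means. The 2 Capn8 probe sets climb in the NBTII-FGFR1 points from 6 h on, to 10.21 and 8.84 at most, while the Capn2 points of both lines peak together at 6 h, up to 11.07.

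On the scale of log2 differences, Capn8 by 1387991_at rose over 0 h in NBTII-FGFR1 by 1.64 ± 0.34 (SE) at 6 h, 3.31 ± 0.34 at 24 h and 4.56 ± 0.34 at 48 h. Probe set 1387292_s_at rose by 0.81 ± 0.26, 1.74 ± 0.26 and 3.61 ± 0.26 at the same times. At 48 h, these were the 5th and the 13th highest differences of all 15866 probe sets. The 6 h calls were less firm than the later ones: the call of 1387991_at ended without NBTII-FGFR1 6 h replicate 2 (1.22), and that of 1387292_s_at ended without NBTII-FGFR1 0 h replicate 1 (0.74) and in 9 further settings. At 24 and 48 h both calls held with each array left out in turn. The 2 arrays of NBTII-FGFR1 at 0 h differed little in either probe set, and the 24 and 48 h calls held without the doubted library.

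The climb of Capn8 went on through each step of the NBTII-FGFR1 course after 2 h. By 1387991_at, it rose by 1.83 ± 0.34 from 2 to 6 h, by 1.66 ± 0.34 from 6 to 24 h and by 1.25 ± 0.34 from 24 to 48 h. By 1387292_s_at, these steps were 0.88 ± 0.26, 0.93 ± 0.26 and 1.87 ± 0.26. The largest step thus differed between the probe sets. The 2 arrays of 1387991_at at 24 h lay 1.36 apart, and the steps on either side of them were less firm. The step from 6 to 24 h was lost without NBTII-FGFR1 24 h replicate 2 (0.99) or 6 h replicate 1 (1.24). The step from 24 to 48 h was lost without 24 h replicate 1 (0.58) or either 48 h array (0.97 and 1.54). By 1387292_s_at, the step from 2 to 6 h was lost without any 1 of the 4 arrays compared (0.83 to 0.92), and that from 6 to 24 h without NBTII-FGFR1 24 h replicate 2 (0.50) or either 6 h array (0.93 for each). Its last step held with each array left out in turn. In NBTII no step of Capn8 was called in the fit over all arrays, and both probe sets were highest at 24 h. The NBTII step of 1387991_at from 6 to 24 h, 0.54, was called when only the arrays compared were fitted.

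Measured from 2 h, which leaves out the 0 h arrays, Capn8 in NBTII-FGFR1 stood 4.75 ± 0.34 higher at 48 h by 1387991_at and 3.68 ± 0.26 higher by 1387292_s_at, the 2nd and 4th highest differences of all probe sets. In NBTII the same difference was 0.08 ± 0.34 with a 95% interval of -0.64 to 0.81, and -0.29 ± 0.26 with an interval of -0.85 to 0.27. The difference of these differences between the lines was 4.66 ± 0.48 and 3.97 ± 0.37. Capn8 was the only calpain gene called in this line by time comparison, and in the F test over 2, 6, 24 and 48 h. Over all probe sets, 1.8% were called in the former and 0.441% in the latter. Those totals moved with single arrays: with 1 array left out they ran from 5 (without NBTII 48 h replicate 1) to 1591 (without NBTII-FGFR1 2 h replicate 2) and from 6 to 1062 probe sets, where all arrays gave 286 and 70.

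None of 5 measured gastric surface mucous markers (Tff1, Tff2, Gkn1, Muc5ac and Pgc) lay above the array median in every array. Their mean level was 4.71 in NBTII-FGFR1 at 48 h and 4.80 in NBTII at 48 h. Over all arrays this mean ran from 4.55 to 4.79 in NBTII-FGFR1 and from 4.62 to 4.87 in NBTII, and Gkn1 lay below the lower quartile in every array. Over the same interval from 2 to 48 h, 7 of 10 epithelial markers fell in NBTII-FGFR1 (17.7% of all probe sets called). In NBTII 4 of 10 fell (5.02%). These shares count both directions. Of all 15866 probe sets, 1488 were called lower in NBTII-FGFR1 and 419 in NBTII. Cdh1, which fell in both lines, stood above 0 h at 2 h, so its fall began from a raised level. That rise was 0.86 ± 0.25 in NBTII-FGFR1 and 1.83 ± 0.30 over the lone 0 h array of NBTII. The NBTII-FGFR1 arrays at 2 h include the doubted replicate 1. The part of these markers in the course of Capn8 was not tested.

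Capn2, the catalytic subunit of m-calpain, rose to a short peak at 6 h in both lines and was back near its starting level at 48 h. In NBTII cells it read 10.16 at 0 h, 10.01 at 0.5 h, 10.35 and 10.45 at 2 h, 11.07 and 10.79 at 6 h, 10.38 and 10.38 at 24 h, and 10.27 and 10.10 at 48 h. In NBTII-FGFR1 cells it read 10.14 and 9.94 at 0 h, 9.82 at 0.5 h, 10.31 and 10.24 at 2 h, 10.73 and 10.88 at 6 h, 10.44 and 10.35 at 24 h, and 10.04 and 10.06 at 48 h. The 4 arrays at 6 h were the highest 4 of the 21, with no overlap with any other time.

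The rise of Capn2 over 0 h at 6 h was 0.77 ± 0.12 in NBTII-FGFR1 and 0.77 ± 0.15 in NBTII, a 1.70-fold signal in each. The NBTII-FGFR1 call held in all 27 alternatives, the doubted 0 h library left out included, and the NBTII call, which rests on 1 array at 0 h, ended without NBTII 6 h replicate 1 (0.63). From 2 to 6 h, Capn2 rose by 0.53 ± 0.12 in each line. From 6 to 24 h it fell by 0.41 ± 0.12 in NBTII-FGFR1 and by 0.55 ± 0.12 in NBTII. The rise from 2 to 6 h was lost in NBTII-FGFR1 without 6 h replicate 2 (0.45), and in NBTII without 6 h replicate 1 (0.39) or 2 h replicate 1 (0.48). The fall was lost in NBTII-FGFR1 without 6 h replicate 2 (-0.33) or either 24 h array (-0.37 and -0.45), and in NBTII without 6 h replicate 1 (-0.41) or either 24 h array (-0.55 for each). At 48 h its difference from 0 h was 0.01 ± 0.12 (95% interval -0.25 to 0.27) in NBTII-FGFR1 and 0.02 ± 0.15 (interval -0.29 to 0.34) in NBTII. Averaged over 2 to 48 h, Capn2 in NBTII-FGFR1 minus NBTII was -0.09 ± 0.06, with an interval of -0.22 to 0.04.

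Capn1, the catalytic subunit of µ-calpain, moved less and with more scatter between replicates. In NBTII cells it read 7.99 at 0 h, 8.33 at 0.5 h, 8.53 and 8.32 at 2 h, 8.68 and 8.33 at 6 h, 7.84 and 7.82 at 24 h, and 8.42 and 7.96 at 48 h. In NBTII-FGFR1 cells it read 7.69 and 7.96 at 0 h, 8.47 at 0.5 h, 8.17 and 8.47 at 2 h, 8.40 and 8.51 at 6 h, 8.36 and 8.23 at 24 h, and 8.81 and 8.49 at 48 h. The NBTII-FGFR1 arrays at 0 h lay below all later arrays of that line, and the NBTII arrays at 24 h lay below all other arrays of theirs.

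Capn1 rose over 0 h in NBTII-FGFR1 by 0.63 ± 0.18 at 6 h and 0.83 ± 0.18 at 48 h. The 6 h call ended without the doubted NBTII-FGFR1 0 h replicate 1 (0.50) and without NBTII-FGFR1 6 h replicate 2 (0.57), and the 48 h call ended without NBTII-FGFR1 48 h replicate 1 (0.67). In NBTII, Capn1 fell by 0.67 ± 0.18 from 6 to 24 h, and its differences from 0 h were not called. The fall was lost without NBTII 6 h replicate 1 (-0.50) or either 24 h array (-0.66 and -0.69). The line difference over 2 to 48 h was 0.19 ± 0.09, which was not called. Among the 12 groups in order of Capn1 level, only NBTII at 0 h and NBTII at 24 h were neighbours without overlapping ranges, so the order of most groups is not resolved.

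Capns1, the regulatory small subunit shared by µ-calpain and m-calpain, was highest in NBTII-FGFR1 cells at 48 h. In NBTII-FGFR1 cells it read 9.44 and 9.74 at 0 h, 9.80 at 0.5 h, 9.35 and 9.92 at 2 h, 9.94 and 10.15 at 6 h, 9.84 and 10.11 at 24 h, and 10.46 and 10.25 at 48 h. In NBTII cells it read 9.50 at 0 h, 9.17 at 0.5 h, 9.77 and 9.64 at 2 h, 9.87 and 9.67 at 6 h, 9.60 and 9.79 at 24 h, and 9.63 and 9.56 at 48 h. The 2 NBTII-FGFR1 arrays at 48 h exceeded all 19 others, and the lines did not overlap at 6, 24 or 48 h.

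Capns1 rose over 0 h in NBTII-FGFR1 by 0.77 ± 0.18 at 48 h, a 1.70-fold signal. That call ended without the doubted NBTII-FGFR1 0 h replicate 1 (0.62) and without NBTII-FGFR1 48 h replicate 1 (0.66). From 2 to 48 h it rose by 0.72 ± 0.18, a call that ended without NBTII-FGFR1 2 h replicate 1 (0.43) or 48 h replicate 1 (0.61). In NBTII its difference between 2 and 48 h was -0.11 ± 0.18 (95% interval -0.49 to 0.26). Capns1 was higher in NBTII-FGFR1 by 0.31 ± 0.09 over 2 to 48 h and by 0.76 ± 0.18 at 48 h. The first of these calls ended with any of 6 arrays left out (0.28 to 0.30) and the second with any of 3 (0.65 to 0.80). The gap between the lines in the change from 2 to 48 h, 0.83 ± 0.25, was not called. Over the 12 group means, Capns1 correlated with Capn8 at r = 0.83, a description over points that share arrays.

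Capn3, the calpain known from skeletal muscle, stayed at the bottom of the signal range. Its lowest, median and highest signals were 3.68, 4.20 and 5.24 in the 10 NBTII arrays and 3.40, 3.94 and 4.57 in the 11 NBTII-FGFR1 arrays. It lay below the array's own lower quartile in 18 of 21 arrays, and the lone NBTII array at 0 h, at 5.24, stood apart from all others. Capn3 fell from that array by 1.21 ± 0.30 to 6 h in NBTII, and this call ended without NBTII 6 h replicate 1 (-0.87) and when only the arrays compared were fitted. Differences of Capn3 from that array at 2, 24 and 48 h were -1.03, -1.04 and -1.11 and were not called. None of 11 skeletal muscle markers lay above the array median in every array, and 5 (Acta1, Myod1, Tnnt3, Mb and Myh4) lay below the lower quartile in all.

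Between the lines, Capn8 differed most. By 1387991_at it was higher in NBTII-FGFR1 by 1.91 ± 0.17 averaged over 2 to 48 h, the 7th highest line difference of all probe sets, and by 1387292_s_at by 1.21 ± 0.13, the 35th. Time by time, the line difference of 1387991_at was -0.39 ± 0.34 at 2 h, 1.31 ± 0.34 at 6 h, 2.43 ± 0.34 at 24 h and 4.28 ± 0.34 at 48 h. That of 1387292_s_at was -0.41 ± 0.26, 0.54 ± 0.26, 1.16 ± 0.26 and 3.56 ± 0.26. At 48 h both were called, as 19.4-fold and 11.8-fold higher signals. At 24 h 1387991_at alone was called, a call that ended without NBTII-FGFR1 24 h replicate 2 (1.75) or without either NBTII 24 h array (2.29 and 2.56). At 2 and 6 h no Capn8 probe set was called.

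**Figure D2:**
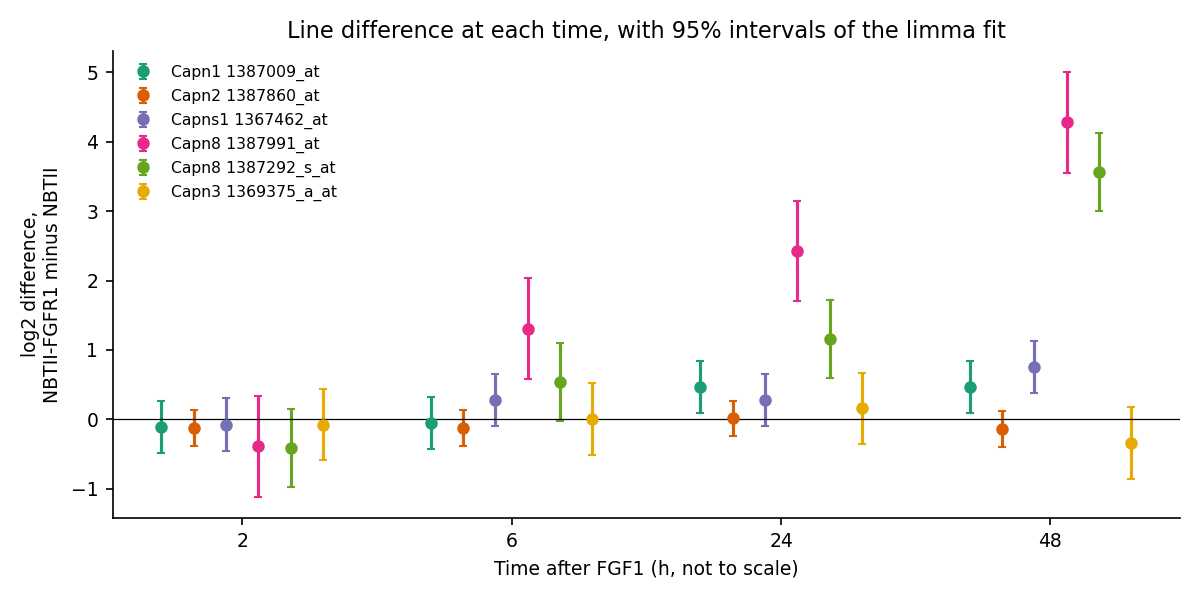
Log2 difference NBTII-FGFR1 minus NBTII (vertical axis) of each calpain probe set at 2, 6, 24 and 48 h (horizontal axis, not to scale), as points with 95% intervals of the limma fit, 2 arrays against 2. The Capn8 probe sets move from -0.39 and -0.41 at 2 h to 4.28 and 3.56 at 48 h and Capn2 stays between -0.13 and 0.01; the intervals are for each probe set alone, so an interval that leaves out 0 is not in itself a call.

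The members' counts are set beside the share of all probe sets called in each comparison, in either direction. Nothing is read from these about the 5 genes. Against 0 h in NBTII-FGFR1, 0 of 6 calpain probe sets were called at 2 h (9.35% of all), 4 rose at 6 h (21.3%), 2 rose at 24 h (6.3%) and 4 rose at 48 h (21.4%). Against 0 h in NBTII, 0 were called at 2 h (2.94%), 1 rose and 1 fell at 6 h (5.9%), and 0 were called at 24 h (0.939%) and at 48 h (0.908%). At 0.5 h, with 1 array per line, 0 were called (2.2%). At an unadjusted p under 0.05 the limma fit passed 3692 of all probe sets at 2 h in NBTII-FGFR1, 2406, 1727 and 1876 at 2, 24 and 48 h in NBTII, and 2501 at 0.5 h.

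Between later times in NBTII-FGFR1, 3 rose from 2 to 6 h (17% of all), 2 rose and 1 fell from 6 to 24 h (14.8%), 2 rose from 24 to 48 h (9.57%) and 3 rose from 2 to 48 h (17.7%). In NBTII, 1 rose from 2 to 6 h (3.3%) and 2 fell from 6 to 24 h (8.3%). None were called from 24 to 48 h (0.063%) or from 2 to 48 h (5.02%), where the limma fit passed 1663 and 2628 of all probe sets at an unadjusted p under 0.05. For the line difference, 3 were higher in NBTII-FGFR1 over 2 to 48 h (16.5%), 0 were called at 2 h (2.12%) and at 6 h (1.71%), 1 was higher at 24 h (0.101%) and 3 were higher at 48 h (8.45%). At 2 and 6 h the limma fit passed 3470 and 2273 of all probe sets at an unadjusted p under 0.05.

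The totals behind these shares moved with single arrays, so the shares are rough. With 1 array left out, the probe sets called against 0 h in NBTII-FGFR1 ran from 518 to 1753 at 2 h (1483 with all arrays), from 1898 to 3825 at 6 h (3382), from 114 to 1357 at 24 h (999) and from 1850 to 3860 at 48 h (3393). The lowest at 2 h came without the doubted 0 h replicate 1 and the lowest at 24 h without NBTII-FGFR1 24 h replicate 2. In NBTII they ran from 248 to 759, 404 to 1235, 43 to 244 and 12 to 270 at these times (466, 936, 149 and 144), and at 0.5 h from 184 to 664 (349). Between later times in NBTII-FGFR1 they ran from 1408 to 3613 for 2 to 6 h, 1016 to 2824 for 6 to 24 h, 356 to 1917 for 24 to 48 h and 1307 to 3106 for 2 to 48 h. In NBTII these ran from 113 to 741, 503 to 1738, 0 to 44 and 225 to 1117. For the line difference they ran from 1795 to 3218 over 2 to 48 h (2611), 20 to 2115 at 2 h (337), 21 to 412 at 6 h (272), 0 to 75 at 24 h (16) and 252 to 1703 at 48 h (1341). The extremes of the line difference at 2 h came without NBTII 2 h replicate 1 and without NBTII-FGFR1 2 h replicate 2, and its lowest at 48 h without NBTII-FGFR1 48 h replicate 1. The lowest total of each comparison in this paragraph came without an array of a group compared, and most of the highest came without the doubted NBTII-FGFR1 2 h replicate 1.

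Cast, which encodes the calpain inhibitor calpastatin, had its highest group means at 6 h in both lines by its brightest probe set. Probe set 1369754_a_at read 8.45 at 0 h in NBTII, 8.52 at 0.5 h, 8.93 and 8.76 at 2 h, 9.08 and 9.22 at 6 h, 8.80 and 8.78 at 24 h, and 8.74 and 8.58 at 48 h. In NBTII-FGFR1 it read 8.69 and 8.53 at 0 h, 7.93 at 0.5 h, 9.14 and 8.87 at 2 h, 9.21 and 9.36 at 6 h, 8.74 and 8.94 at 24 h, and 8.85 and 8.87 at 48 h. The lone NBTII-FGFR1 array at 0.5 h was the lowest of the 21, and the 6 h arrays were among the highest. At 6 h it rose over 0 h by 0.67 ± 0.13 in NBTII-FGFR1 (limma adjusted p = 0.0014) and by 0.70 ± 0.15 in NBTII (limma adjusted p = 0.014). The latter call ended without NBTII 6 h replicate 2, and the former held without the doubted 0 h library (0.75). Of the other Cast probe sets in NBTII-FGFR1 at 6 h, 1371173_a_at rose by 0.98 ± 0.23 and 1373466_at differed by 0.43, which was not called. In NBTII-FGFR1, 1373466_at had its highest mean at 2 h (8.80, arrays at 8.42 and 9.17) and not at 6 h (8.73). Over the 12 group means, Capn2 and Cast by 1369754_a_at alone correlated at r = 0.83, a description over points that share arrays.

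**Figure D3:**
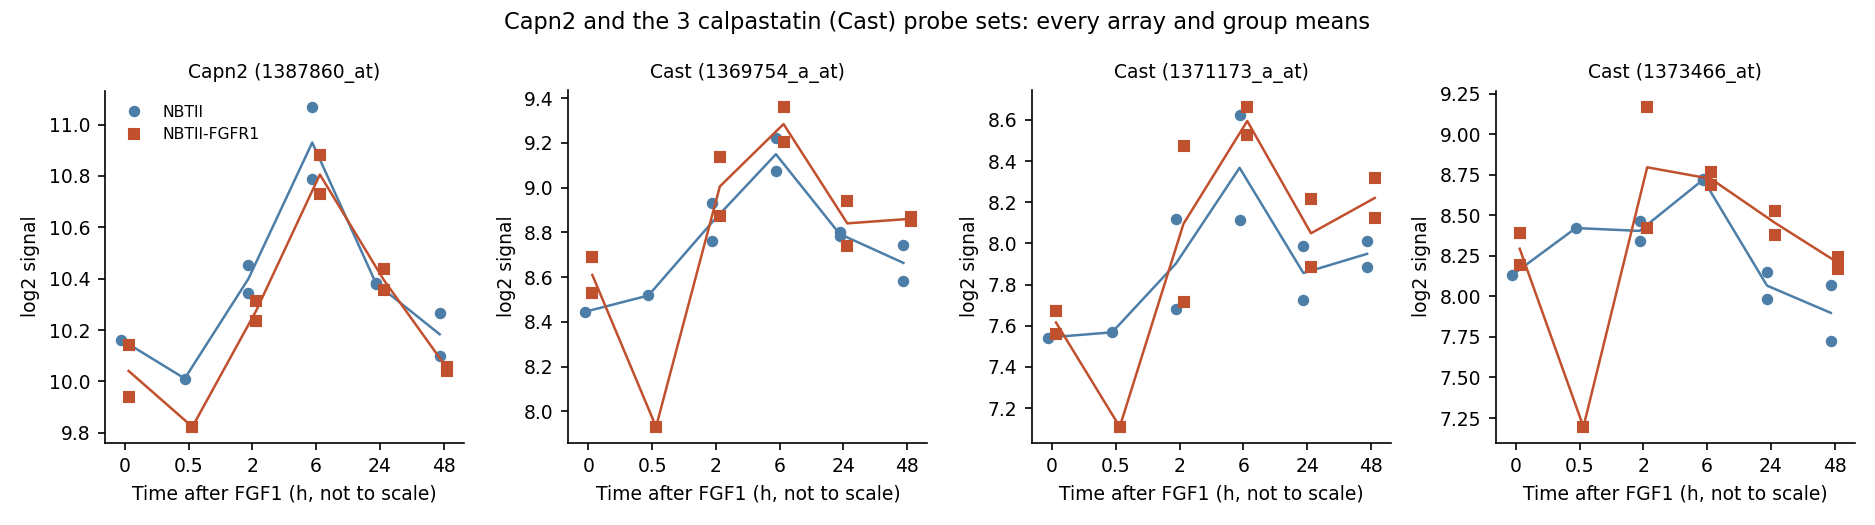
Log2 signal (vertical axis) of Capn2 and the 3 Cast probe sets at each time after FGF1 (horizontal axis, not to scale), every array as a point, NBTII as circles, NBTII-FGFR1 as squares, lines through group means. Capn2 reaches 11.07 and Cast 1369754_a_at 9.36 at 6 h, and all 3 Cast probe sets are lowest in the single NBTII-FGFR1 array at 0.5 h.

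The other 7 calpains on the array moved by less than 1 on the log2 scale in every called comparison. Capn10, a calpain without a calcium-binding hand domain, rose by 0.50 ± 0.12 over 0 h and by 0.81 ± 0.12 over 2 h at 6 h in NBTII-FGFR1, and was lower in that line over 2 to 48 h by 0.19 ± 0.06. Capn15, of the small optic lobe type, rose by 0.54 ± 0.12 from 2 to 6 h in NBTII-FGFR1. It fell by 0.49 ± 0.12 from 6 to 24 h in that line and by 0.47 ± 0.12 in NBTII. Capn7 fell by 0.53 ± 0.16 from 0 to 48 h in NBTII-FGFR1. Capn9, like Capn8 a calpain of the digestive tract, fell by 0.42 ± 0.11 from 0 to 24 h in NBTII-FGFR1. It lay below the lower quartile in 15 of 21 arrays, and Capn6 and Capn13 did so in all 21. Of these calls, the 6 h rise of Capn10 over 2 h held with each array left out in turn, and the others ended in at least 1 such fit. Without the doubted 0 h library, the rise of Capn10 from 0 to 6 h held (0.57), and the falls of Capn7 (-0.42) and Capn9 (-0.48) were no longer called. Capn5, whose signal lay between 4.19 and 4.92, was called in no comparison.

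Of 22 measured genes whose proteins calpains are known to cut, 7 rose and 5 fell from 0 to 6 h in NBTII-FGFR1 (21.3% of all probe sets called), with a list median of 0.09 against 0.02 for all probe sets. Zyx, an adhesion adaptor, rose by 2.31 ± 0.32, the kinase Src by 1.46 ± 0.21 and the adhesion scaffold Pxn by 1.28 ± 0.19. Sptbn1, a spectrin of the membrane skeleton, fell by 1.002 ± 0.179. In NBTII at 6 h, 10 rose and 0 fell (5.9% of all called), with a median of 0.63 against -0.01 for all probe sets. Among the 10 were Cdh1 (2.13 ± 0.30), Zyx (2.26 ± 0.39), Vcl (1.17 ± 0.20) and Flna (1.17 ± 0.20). All 10 rises are measured from the lone NBTII array at 0 h, which stayed in every fit. Against that array the list median was 0.26 at 24 h and 0.19 at 48 h, where 0 were called. At 48 h in NBTII-FGFR1, 3 rose and 2 fell, a share near that of all probe sets (21.4%). Src stood 1.24 ± 0.21 higher than at 0 h, the epidermal growth factor receptor Egfr fell by 2.33 ± 0.26 and the cadherin Cdh1 by 0.86 ± 0.25. Between the lines at 48 h, 2 were higher in NBTII-FGFR1 and 1 lower (8.45% of all called), with Src at 1.02 ± 0.21, Cttn at 0.38 ± 0.11 and Egfr at -0.998 ± 0.262. Without the doubted 0 h library, 6 rose and 2 fell at 6 h and 1 rose and 2 fell at 48 h. The differences of Cdh1 (-0.55) and Cttn (0.33) between 0 and 48 h were then not called. Those from 0 h named above for Zyx, Src, Pxn, Sptbn1 and Egfr were still called. Each gene stands here by its brightest probe set. Src and Sptbn1 have 3 other probe sets each, and Egfr, Vcl and Cttn 1 each, whose values are not given here.

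Of 12 measured genes of calcium entry, stores and sensing, 3 rose and 0 fell from 0 to 48 h in NBTII-FGFR1, where 21.4% of all probe sets were called. These were the store release channel Itpr3 (0.95 ± 0.12), the plasma membrane calcium pump Atp2b1 (0.90 ± 0.14) and the entry channel Orai1 (0.51 ± 0.15), whose call ended without the doubted 0 h library (0.52). At 6 h in NBTII, against its lone 0 h array, Atp2b1 (1.52 ± 0.17), the store pump Atp2a2 (0.94 ± 0.19) and Itpr3 (0.56 ± 0.14) rose. There 0 fell (5.9% of all called). Atp2a2 has 3 other probe sets, whose values are not given here. Between the lines over 2 to 48 h, Itpr3 (0.44 ± 0.06), the store sensor Stim1 (0.39 ± 0.06) and Atp2b1 (0.27 ± 0.07) were higher in NBTII-FGFR1, and the channel Trpv6 was lower (-0.18 ± 0.06), where 16.5% of all were called.

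The list of cysteine proteases outside the calpain family also held Cstb and Cst3, which encode inhibitors of such proteases. Of its 16 measured genes, Cstb among them, 8 rose and 1 fell from 0 to 6 h in NBTII-FGFR1 (21.3% of all called). The list median was 0.40 against 0.02 for all probe sets. From 0 to 48 h, 6 rose and 1 fell (21.4% of all called), with a median of 0.15 against -0.04. Without the doubted 0 h library, 4 rose and 1 fell at 6 h and 5 rose and 0 fell at 48 h, and the 4 rises named next were still called. At 48 h the lysosomal proteases Ctsl, Lgmn and Ctsb rose by 2.49 ± 0.23, 1.29 ± 0.18 and 0.64 ± 0.11, and the initiator caspase Casp8 rose by 1.75 ± 0.21. In the line difference at 48 h, Ctsl (1.71 ± 0.23), Casp8 (0.94 ± 0.21) and Ctsb (0.48 ± 0.11) were among 4 higher in NBTII-FGFR1. Casp2 was the 1 lower (-0.54 ± 0.12), where 8.45% of all were called. Ctsl and Casp2 have 1 other probe set each, whose values are not given here.

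Genes with group means most like each calpain were found among 6900 probe sets, by Pearson r over the 12 groups. These carry 1 gene symbol and have a mean level at or above the median. Genes of lower mean signal were not searched. For Capn8 these were Serpinb6a (r = 0.94), an intracellular protease inhibitor, Gne (0.94), an enzyme of sialic acid synthesis, and Bnip3l (0.93), a mitophagy receptor. All 3 peaked in NBTII-FGFR1 at 48 h, over a much narrower range than Capn8. Serpinb6a stayed the most alike over the 21 single arrays, where Gne ranked 4th and Bnip3l 5th. By Spearman rho, Serpinb6a ranked 67th, Gne 152nd and Bnip3l 246th.

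**Figure D4:**
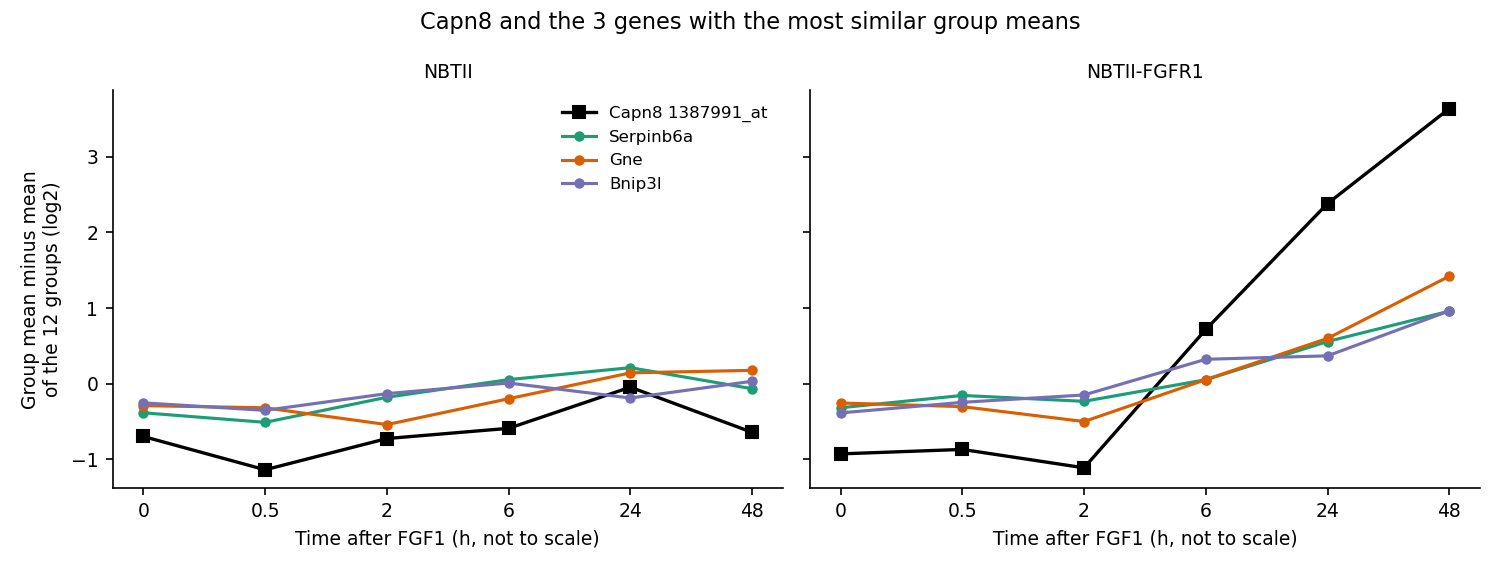
Group means minus the mean of the 12 groups (log2, vertical axis) for Capn8 1387991_at (squares) and for Serpinb6a, Gne and Bnip3l (circles) at each time after FGF1 (horizontal axis, not to scale), NBTII on the left and NBTII-FGFR1 on the right. All 4 are highest in NBTII-FGFR1 at 48 h, and Capn8, whose group means span the widest range, stands furthest above its mean.

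For Capn2 the most alike were Uaca (0.96), Pdcl3 (0.93) and Hip1r (0.93), the last an actin and clathrin adaptor. For Capn1 they were Lrp10 (0.88), B4galt1 (0.88) and Ctsb (0.88), the lysosomal cathepsin B. For Capns1 they were Selenom (0.94), Ube2j1 (0.94) and Necap2 (0.93). For Capn3, at its low level, they were Dhrs4 (0.82), Cdc42 (0.80) and Scp2 (0.80). Uaca and Lrp10 were also the most alike over the 21 single arrays, and Selenom ranked 7th and Dhrs4 14th there. Cdc42 ranked 162nd there and 313th by Spearman rho, with group means from 10.95 to 11.18 alone, and Scp2 ranked 30th and 36th. By Spearman rho, Uaca ranked 9th, Pdcl3 1st and Hip1r 36th for Capn2, and Lrp10 3rd, B4galt1 38th and Ctsb 5th for Capn1. For Capns1, Selenom ranked 53rd, Ube2j1 68th and Necap2 129th by that measure, and for Capn3 Dhrs4 ranked 30th. These correlations are descriptions over points that share arrays, taken as the highest of many.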

How the data were processed

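RMA, named in the submitters' processing notes, gave the log2 signals in the authors' deposited table. Its version is not stated there, and raw image files were not used here. Of 15923 probe sets, 57 controls were left out, and the other 15866 were all tested, low ones included. In the platform annotation, 12783 carry 1 gene symbol, 312 several and 2771 none. The members and all gene lists were chosen with earlier results of these data known.

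Groups came from the sample titles. One linear model over the 12 group means of all 21 arrays was fitted with limma 3.58.1 in R 4.3.3 (9 residual and 5.68 prior degrees of freedom), so a group of 1 array borrows its spread from the rest. P-values were adjusted by Benjamini-Hochberg over all probe sets within each comparison, at 0.05. Tested on simulated data for NBTII-FGFR1 48 h against 0 h over 15866 probe sets, the fit recovered 90% of planted log2 changes of 1 and 99% of changes of 2, with 4.06% of calls false. The simulated noise was independent between probe sets and arrays, with no mislabelled array, so these rates may not carry over to these data. Steps between neighbouring times were added after the data were seen. Tables and figures used Python 3.11.15, pandas 2.3.3, numpy 2.4.6 and matplotlib 3.10.9.

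All member probe sets, Cast and every other calpain were named, with up to 4 called genes of the smallest p per list and comparison, and the 3 most alike genes per member, passing over LOC and RGD symbols. Where 1 value per gene was needed, the probe set of highest mean level stood for it. Motifs were searched in the RefSeq promoter table (GRCr8). The alternatives were a filter at the median level, a replicate block, only the arrays compared, repeated quantile normalization, median centring, robust eBayes with a trend, weighted arrays, leaving out any 1 of 18 arrays, both doubted arrays left out (NBTII-FGFR1 0 h replicate 1 and 2 h replicate 1), and the mean of a gene's probe sets. Protein sequences were not analysed here.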

Additional observations from a re-analysis of the deposited data

Results flagged for a closer look

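The course of Capn8 differed between the lines. Its difference between 48 and 2 h was larger in NBTII-FGFR1 than in NBTII by 4.66 (1387991_at) and 3.97 (1387292_s_at) on the log2 scale. Both NBTII-FGFR1 arrays at 48 h exceeded both at 2 h in each probe set, while in NBTII the arrays of these times overlapped for 1387991_at and were lower at 48 h for 1387292_s_at. The limma term for line by time passed the threshold for both probe sets, as did the F test over 2 to 48 h. The genes were chosen with such results known, so this is a description, and no explanation was tested.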

How the results depend on the processing

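Over 144 results of a calpain probe set in a comparison, 37 were called, of which 17 held in every alternative run (at most 27) and 20 were lost in at least 1. Of the 107 others, 11 were called in at least 1. No called difference turned its sign, and 34 uncalled ones did so somewhere. The share of all probe sets called in these comparisons ran from 0.063% to 21.4%. The 144 results are not independent, since comparisons share arrays, Capn8 has 2 probe sets and line by time is counted by its difference and its F test. Nothing is read from the 37 about the 5 genes. Counts below are calpain genes called out of 5, each by its brightest probe set (1387991_at for Capn8), and the cause of a change was not tested unless stated. Fitting only the arrays compared, which leaves fewer arrays to estimate the spread, changed NBTII 6 h against 0 h from 2 to 0, and in NBTII-FGFR1 48 h against 2 h and 6 h against 2 h from 2 to 1, 24 h against 6 h from 2 to 0 and 48 h against 24 h from 1 to 0, where the other Capn8 probe set, 1387292_s_at, stayed called in every alternative. It also changed NBTII 6 h against 2 h and the line difference at 24 h from 1 to 0. Array weights changed NBTII 48 h against 0 h from 0 to 1 (Capn3), and in NBTII-FGFR1 6 h against 2 h and 24 h against 6 h from 2 to 1 and 48 h against 24 h from 1 to 2. The filter at the median level removed Capn3 and changed NBTII 6 h against 0 h from 2 to 1. Without both doubted arrays, NBTII 2 h against 0 h went from 0 to 1 (Capn3) and NBTII-FGFR1 48 h against 2 h from 2 to 1. Repeated quantile normalization, median centring, eBayes with trend and robust set, and the mean of a gene's probe sets moved no such count by over 1.5 times. Without both doubted arrays, the total of all probe sets called also went up for NBTII 2 h against 0 h. It went down for NBTII-FGFR1 48 h against 2 h. Totals for the other settings of this paragraph are not given here. The changes of count are therefore not read as results about the 5 genes.

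With 1 array left out at a time, the counts against 0 h in NBTII-FGFR1 ran from 0 to 0 at 2 h, 1 to 4 at 6 h, 1 to 1 at 24 h and 1 to 3 at 48 h. In NBTII they ran from 0 to 1 at 2 h, 0 to 2 at 6 h and 0 to 0 at 24 h, 48 h and, over both lines, 0.5 h. In NBTII-FGFR1 they ran from 1 to 2 for 48 h against 2 h, 1 to 3 for 6 h against 2 h, 0 to 2 for 24 h against 6 h and 0 to 1 for 48 h against 24 h. In NBTII these were 0 to 0, 0 to 1, 0 to 2 and 0 to 0. The line difference ran from 1 to 2 over 2 to 48 h, 0 to 0 at 2 h, 0 to 1 at 6 h and at 24 h and 1 to 2 at 48 h. The line by time difference and its F test ran from 1 to 2. The lone arrays of 3 groups stayed in all of these fits.

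Same-numbered arrays deviated together at r = -0.13 to 0.35 (median 0.02, 15 of 36 pairs of groups over 0.1), which does not establish that the replicate numbers pair the arrays. With the replicate block, the count of called calpain genes was 3 for NBTII-FGFR1 at 48 h against 0 h, as without it, and no count moved by over 1.5 times.

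The precision is limited by 1 or 2 arrays per group. Background signal was not measured here, so whether Capn3, or Capn8 before 6 h, lay above it was not tested.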
